A study of Homo sapiens with 24 samples.

Results

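The zinc finger genes of the 19q13.4 clusters examined here are 54 genes with ZNF symbols on distal chromosome 19q, ZNF8 among them. The list of symbols was drawn up with earlier results of these data known. It was matched to the 60671 genes that the count tables of both cell lines list. All 54 were annotated as protein coding in GENCODE 29 on GRCh38, within chr19:51804816-58302805. They formed a proximal cluster of 36 genes, from ZNF577 to ZNF331 (chr19:51804816-53580269), and a distal cluster of 18 genes, from ZNF582 to ZNF8 (chr19:56375846-58302805). The same span held 35 further protein coding ZNF genes that were not among the 54.

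Most genes of this kind encode KRAB zinc finger proteins, which bind DNA through a tandem array of C2H2 zinc fingers and recruit the corepressor TRIM28, also called KAP1, through their KRAB domain. TRIM28 in turn brings SETDB1, which methylates histone H3 at lysine 9, and heterochromatin proteins of the CBX family. The genes arose by repeated duplication, lie side by side in clusters, and many of their proteins bind transposable elements, which are widely transcribed and repressed in early embryos and in pluripotent cells.

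Polyadenylated RNA was sequenced in 24 libraries, 3 for each of 8 groups, from H1 and H9, both established lines of human embryonic stem cells. Primed cells resemble the epiblast after implantation and naive cells the epiblast before it. All H1 cells received doxycycline: primed cells with CARHSP1 knockdown or a nontargeting control, naive cells with ZNF8 knockdown or a nontargeting control, and cells on day 2 of ectoderm differentiation with ZIC2 knockdown or a nontargeting control. The H9 groups were primed and naive cells, for which the labels list neither a knockdown nor doxycycline. Cell line, nontargeting construct and doxycycline therefore differ together between the H1 and H9 groups and cannot be told apart. The labels give StemFlex as the maintenance medium of every sample and state no other medium for the naive cells. Nothing in them states that replicates came from separate cultures. The p-values therefore reflect the variation among 3 libraries of a kind, part of which could be technical.

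Libraries held 6756704 to 20773963 counts. The 8 naive markers summed to 344 to 361 CPM (counts relative to library size, on 1 scale for all 24 libraries) in naive H1 controls against 34.9 to 40 CPM in primed H1 controls, and to 117 to 124 CPM in naive H9 against 23.4 to 28.1 CPM in primed H9. In naive H9, DPPA3 stood at 16.7 CPM, but KLF17, a defining naive marker, was at 0.068 CPM against 10.8 CPM in naive H1 controls. The 6 neural ectoderm markers summed to 304 to 332 CPM in ectoderm controls against 1.2 to 1.71 CPM in primed H1 controls. CARHSP1 fell from 149 ± 2.45 to 19.2 ± 1.47 CPM (SD, n = 3) in its knockdown (log2 change −2.97) and ZIC2 from 556 ± 61.8 to 267 ± 4.19 CPM (log2 change −1.06). The third targeted gene, ZNF8, is itself one of the 54.

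The 54 genes together gave more RNA in naive than in primed cells of both lines. Their summed level was 2372, 2278 and 2326 CPM in the naive H1 controls and 1095, 1141 and 1095 CPM in the primed H1 controls. In H9 the sum was 1536, 1476 and 1665 CPM in naive and 1227, 1326 and 1193 CPM in primed libraries. The groups overlapped in neither line. Ectoderm controls lay between, at 1330, 1325 and 1408 CPM. Of the 54 genes, 23 had their highest group mean in naive H1 controls, 11 in ectoderm controls, 8 each in ZNF8 knockdown naive cells and naive H9, and 4 in primed H9. A bulk level cannot tell fewer expressing cells from less RNA per cell.

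**Figure D1:**
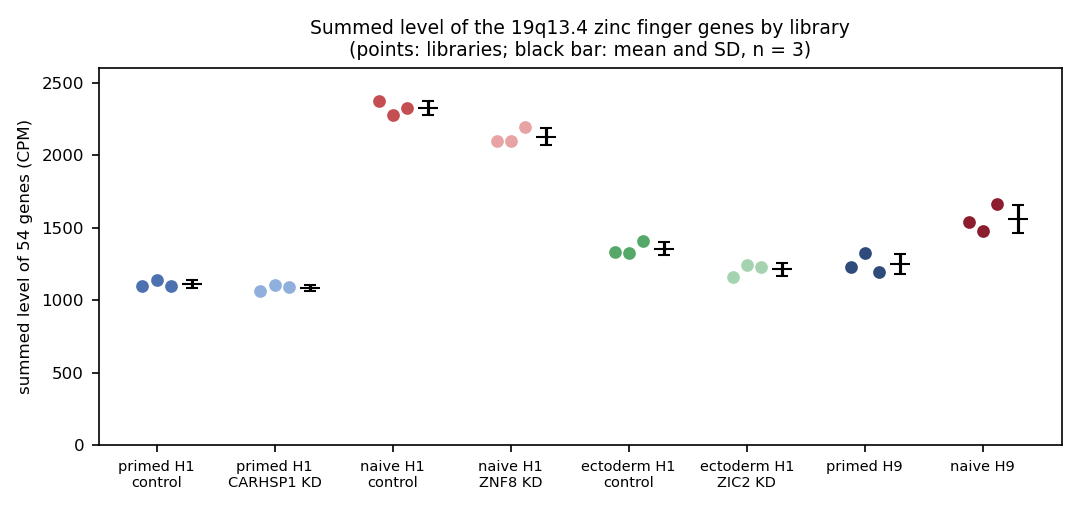
Summed level of the 54 genes in CPM (y axis) for each of the 24 libraries (points) in 8 groups (x axis), with the group mean and SD of 3 libraries as a black bar. The naive H1 controls sit between 2278 and 2372 CPM, above every other group, and the primed groups of H1 sit lowest.

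Levels per gene length were set on an RPKM scale, with the gene length deposited by the authors. On that scale ZNF649, whose protein binds LINE-1 elements, was the most abundant member averaged over the 8 groups at 19.3 RPKM, and its group means ran from 11.6 RPKM in primed H1 controls to 28.5 RPKM in naive H9. ZNF761 followed at 11.7, ZNF551 at 10.8, ZNF616 at 10.7 and ZNF552 at 10.1 RPKM. The range over groups differed widely between these neighbours in rank, from 9.32 to 13 RPKM for ZNF551 to 2.41 to 31 RPKM for ZNF552. The lowest members were ZNF534 at 0.411, ZNF547 at 0.456, ZNF665 at 0.716, ZNF583 at 0.798 and ZNF773 at 0.886 RPKM. ZNF8 ranked 39 of the 54 at 2.75 RPKM.

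ZNF8 is the last gene of the distal cluster (ENSG00000278129, plus strand, chr19:58278951-58302805). Its RefSeq promoter window on GRCh38.p14 (chr19:58278705-58278984, 250 bases before the annotated start and 30 from it, plus strand) is shown because it holds 4 copies of the letters CCAAT, read as ATTGG on this strand and set in capitals, more than that of any other member. No other of the 46 members with a promoter in the RefSeq table had more than 2.
ZNF8: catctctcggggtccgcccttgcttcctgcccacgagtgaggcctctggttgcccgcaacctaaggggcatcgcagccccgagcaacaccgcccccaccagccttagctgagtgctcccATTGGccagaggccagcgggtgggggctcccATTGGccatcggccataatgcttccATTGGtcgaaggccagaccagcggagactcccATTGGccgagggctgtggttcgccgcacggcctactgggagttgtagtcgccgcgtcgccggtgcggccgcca

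ZNF8 RNA was lower in naive than in primed cells of both lines, opposite to most of its relatives. Primed H1 controls had 27.4, 29.8 and 33.0 CPM and naive H1 controls 23.5, 18.8 and 17.8 CPM, a log2 change of −0.59 ± 0.12 (SE, adjusted p = 1.33e-05, edgeR quasi-likelihood test). Primed H9 had 25.6, 44.0 and 34.9 CPM and naive H9 17.4, 17.8 and 21.2 CPM, a log2 change of −0.89 ± 0.16 (adjusted p = 0.000172). The groups overlapped in neither line, and both calls held under all 13 alternatives of their comparison. The 2 changes were not called different from each other (H9 minus H1 −0.30 ± 0.21, adjusted p = 0.258).

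In the cells in which ZNF8 itself was targeted, its RNA was 15.5, 15.7 and 17.8 CPM against 23.5, 18.8 and 17.8 CPM in controls. The highest knockdown library met the lowest control library, and the log2 change of −0.32 ± 0.13 did not pass (adjusted p = 0.0664, range over 13 alternatives 0.0355 to 0.381, below the threshold of 0.05 in 4 of them). ZNF8 protein was not measured. Of the 50-base runs of the longest ZNF8 transcript, 22.2% also occurred in other genes, most often in AC020915.1 and AC020915.5, same-strand genes that overlap ZNF8, so the counting of reads between them is uncertain.

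Differences in ZNF8 were no larger in the other settings. With CARHSP1 knockdown it was at 23.5, 24.5 and 25.4 CPM, below all 3 primed controls, and the log2 change of −0.29 ± 0.10 passed (adjusted p = 0.0379) but was lost in 8 of 13 alternatives, with adjusted p up to 0.22. Ectoderm controls were at 29.2, 31.4 and 25.7 CPM and ZIC2 knockdown ectoderm at 27.4, 29.6 and 24.2 CPM. Neither ectoderm against primed (log2 change −0.08 ± 0.12, adjusted p = 0.576) nor the ZIC2 knockdown (−0.09 ± 0.12, adjusted p = 0.654) passed. In order of mean, ZNF8 stood at 34.8 CPM in primed H9, 30.1 in primed H1 controls, 28.8 in ectoderm controls, 27.1 with ZIC2 knockdown, 24.5 with CARHSP1 knockdown, 20.1 in naive H1 controls, 18.8 in naive H9 and 16.3 CPM with ZNF8 knockdown. Neighbours in this order overlapped or met in their libraries, while every naive library was at or below 23.5 CPM and every other library at or above it.

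**Figure D2:**
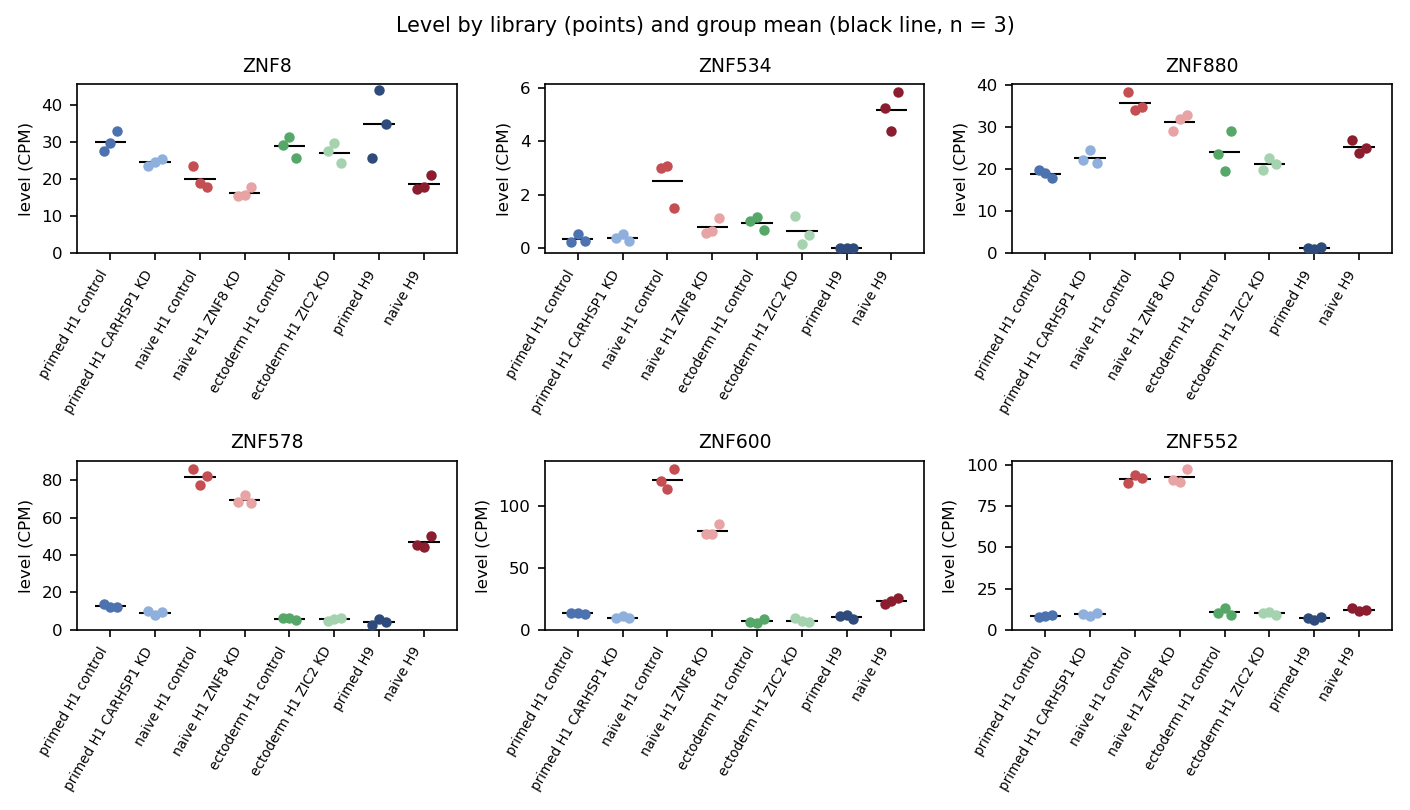
Level in CPM (y axis, one scale per gene) of ZNF8, ZNF534, ZNF880, ZNF578, ZNF600 and ZNF552 in each library (points) of the 8 groups (x axis), with the group mean of 3 libraries as a black line. ZNF8 is lowest in the naive groups, ZNF534 is at 0 in every primed H9 library, ZNF880 is at 1.11 to 1.51 CPM there and at 17.9 CPM or more in every other library, and ZNF552 is at 89.1 to 97.7 CPM in the naive H1 groups.

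Naive H1 controls were compared with primed H1 controls, which asks how the family differs between the pluripotent states within one line. Of the 54 genes, 44 rose and 4 fell, with a median log2 change of 0.80. In all genes tested 71.1% were called, 35% of the genes higher and 36.1% lower, with a median of 0.00, so a call as such was common in this comparison. Of the 54 members, 23 were called at least 2-fold higher and 0 at least 2-fold lower. Of the 15874 genes tested, 2307 (14.5%) were higher and 2743 lower by as much. The libraries did not overlap in 46 of the 54 members, against 72.9% of all genes tested.

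ZNF552 had the largest rise, from 7.73, 8.12 and 9.26 CPM in primed to 89.1, 93.7 and 92.0 CPM in naive H1 controls, 10.8-fold (log2 change 3.43 ± 0.10, adjusted p = 6.4e-40). ZNF600 rose from 13.3, 13.7 and 12.9 to 120, 113 and 130 CPM (log2 change 3.17 ± 0.09). ZNF583 rose from 1.56, 1.73 and 2.25 to 15.8, 13.3 and 15.8 CPM, 7.97-fold (adjusted p = 2.47e-18). In these 3 genes every naive library exceeded every primed one by far more than the spread within a group. ZNF432, a factor linked to DNA repair, rose by 2.88 ± 0.12 on the log2 scale. ZNF808, whose protein binds MER11 elements and whose loss is known to impair pancreas development, rose by 2.42 ± 0.11, ZNF611 by 2.21 ± 0.11, and ZNF350, a corepressor partner of BRCA1 also called ZBRK1, by 2.18 ± 0.17.

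The 4 genes that fell were ZNF8, ZNF813, ZNF551 and ZNF331, an imprinted gene. ZNF813 was at 43.9, 41.8 and 37.0 CPM in primed and 33.4, 28.6 and 33.0 CPM in naive H1 controls (log2 change −0.39 ± 0.10), ZNF551 fell by 0.36 ± 0.08 and ZNF331 by 0.34 ± 0.12 on the log2 scale. All 4 had non-overlapping libraries. The 6 genes without a call were ZNF415, ZNF616, ZNF665, ZNF773, ZNF845 and ZNF543.

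Markers of other cell types moved with this comparison. The 5 mesendoderm markers summed to 129 to 152 CPM in naive against 4.5 to 6.52 CPM in primed H1 controls, of which MIXL1 made up 129 CPM, with SOX17 at 0 in both groups. The 5 trophoblast markers summed to 41.6 to 48.6 against 6.74 to 12 CPM and the 3 amnion markers to 34.7 to 38.6 against 11.8 to 13 CPM. Of the amnion markers, ISL1 was at 25.6 against 0.203 CPM and VTCN1 at 3.53 against 0.0248 CPM. GABRP was lower in naive H1 controls, at 7.75 against 12.4 CPM. Fibroblast markers summed to 309 to 319 CPM in naive and 306 to 322 CPM in primed H1 controls, but single genes moved in opposite directions. COL1A1 was at 6.74 CPM in naive against 122 CPM in primed and THBS1 at 4.79 against 38.8 CPM. COL1A2 was at 300 against 152 CPM and POSTN at 2.57 against 2.28 CPM. The part of these markers in the results was not tested.

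In H9, 25 of the 54 genes rose and 5 fell between primed and naive cells, with a median log2 change of 0.26. Of all genes tested 51.5% were called, 25.4% higher and 26.1% lower, with a median of 0.00. Among the members, 9 of 54 were called at least 2-fold higher and 0 at least 2-fold lower. Of the 15761 genes tested, 1243 (7.89%) were higher and 1564 lower by as much. In 34 of 54 members the libraries did not overlap, against 57.7% of all genes.

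Other markers moved with the H9 comparison as well. The amnion markers summed to 42.2 to 46.4 CPM in primed H9, where GABRP made up 43.9 CPM, and to 1.95 to 2.26 CPM in naive H9. The fibroblast markers summed to 306 to 405 CPM in primed against 160.1 to 185 CPM in naive H9, and the trophoblast markers to 9.59 to 14.7 against 4.17 to 8.79 CPM. Mesendoderm markers were low in both, at 0.907 to 1.11 and 2.86 to 3.86 CPM. Their part in the members' changes was not tested.

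The 3 largest rises belonged to neighbours, ZNF880, ZNF534 and ZNF578, which follow one another without another member between them. ZNF534 had 0 counts in all 3 primed H9 libraries and 59, 40 and 62 counts (5.24, 4.39 and 5.84 CPM) in naive H9, at least 67.3-fold higher when 3 counts over the primed group are taken as the floor, which covers counting error only (adjusted p = 6.24e-09). ZNF880 had 1.37, 1.11 and 1.51 CPM in primed and 27.1, 23.96 and 24.9 CPM in naive H9, 18.6-fold (log2 change 4.21 ± 0.18, adjusted p = 8.54e-13). ZNF578 had 2.74, 5.75 and 4.16 CPM in primed and 45.5, 44.4 and 50.3 CPM in naive H9, 11.4-fold (log2 change 3.51 ± 0.18). The lowest naive library of each lay far above its highest primed library.

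The RefSeq promoter windows of these 3 genes (GRCh38.p14, plus strand, 250 bases before the annotated start and 30 from it) are printed because the genes are adjacent, had the largest changes in H9 and share a run of letters at the start. Capitals mark CCGGAAG, letters found in binding sites of ETS family factors. The windows lie at chr19:52369673-52369952 (ZNF880), chr19:52428898-52429177 (ZNF534) and chr19:52453303-52453582 (ZNF578).
ZNF880: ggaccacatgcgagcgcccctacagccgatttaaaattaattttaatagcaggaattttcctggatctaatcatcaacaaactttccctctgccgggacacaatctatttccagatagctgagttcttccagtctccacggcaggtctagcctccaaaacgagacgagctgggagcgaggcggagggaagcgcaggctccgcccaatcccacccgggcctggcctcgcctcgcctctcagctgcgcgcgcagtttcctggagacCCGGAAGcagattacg
ZNF534: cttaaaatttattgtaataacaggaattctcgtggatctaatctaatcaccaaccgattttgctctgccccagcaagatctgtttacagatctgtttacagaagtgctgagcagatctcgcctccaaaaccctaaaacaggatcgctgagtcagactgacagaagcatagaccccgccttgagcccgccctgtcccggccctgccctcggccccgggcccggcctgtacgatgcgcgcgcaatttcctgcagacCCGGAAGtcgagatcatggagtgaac
ZNF578: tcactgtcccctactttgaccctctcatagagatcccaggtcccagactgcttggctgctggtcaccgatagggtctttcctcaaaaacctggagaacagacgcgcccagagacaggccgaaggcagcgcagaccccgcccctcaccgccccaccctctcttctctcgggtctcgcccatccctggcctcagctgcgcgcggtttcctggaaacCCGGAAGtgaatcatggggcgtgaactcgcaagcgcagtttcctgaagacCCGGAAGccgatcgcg

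All 3 windows hold the 11 letters AGACCCGGAAG near the annotated start, beginning at base 11, 1 and 11 counted from it. This run was found by comparing the 3 sequences. On both strands of the 300-base RefSeq windows it occurred in 8 of the 46 members with an entry (17.4%) and in 0.0879% of 27305 promoters. The other 5 members with it were ZNF766, ZNF320, ZNF816, ZNF160 and ZNF765, whose log2 changes in H9 ran from 0.04 (ZNF816, adjusted p = 0.833) to 0.47 (ZNF766, adjusted p = 0.00226), each smaller than those of the 3 neighbours. The shorter CCGGAAG, which lies within the run, occurred in 30 of 46 members (65.2%) and 10.7% of all promoters. GGGCGG occurred in 34 (73.9%) against 44.6% and CCAAT in 21 (45.7%) against 35.7%, each on either strand, and members had a median of 25 CG dinucleotides per window against 14. These matches are descriptions of letters, not of binding. No entry was given for ZNF649, ZNF480, ZNF610, ZNF600, ZNF28, ZNF888, ZNF665 and ZNF552, and for 9 members with several starts the one listed first was used.

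Among the other genes that rose in H9, ZNF841 went from 7.92, 9.18 and 8.39 to 25.2, 27.9 and 30.3 CPM (log2 change 1.71 ± 0.14) and ZNF613 from 16.3, 18.8 and 16.7 to 43.0, 35.8 and 43.6 CPM (log2 change 1.24 ± 0.12). In both, the groups lay well apart. ZNF350 rose 2.29-fold, ZNF582, a gene known for promoter methylation in cervical neoplasia, 2.22-fold and ZNF600 2.18-fold.

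Lower in naive H9 were ZNF8, ZNF543, ZNF347, ZNF813 and ZNF331. ZNF347 was at 20.1, 21.9 and 22.4 CPM in primed and 14.5, 11.1 and 15.3 CPM in naive H9 (log2 change −0.65 ± 0.14, adjusted p = 0.000773), without overlap. ZNF331 was at 91.3, 80.5 and 77.3 CPM in primed and 69.9, 74.5 and 69.3 CPM in naive H9, and its call (log2 change −0.23 ± 0.09, adjusted p = 0.0468) was lost in 9 of 13 alternatives. Its means in the 6 H1 groups were lower than in either H9 group and ran from 20.9 to 32.8 CPM.

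The H1 and H9 comparisons share no libraries. All 25 genes higher in naive H9 were also higher in naive H1 controls, where they made up 56.8% of the 44. As 81.5% of all members were higher in H1, a large overlap is given by that share alone. The matching overlap over all genes was not counted. ZNF8, ZNF331 and ZNF813 fell in both. ZNF347 moved in opposite directions, falling in H9 and rising in H1 (log2 change 0.30 ± 0.12, adjusted p = 0.0193, lost in 3 of 13 alternatives). Across the 54 genes the 2 changes had a Pearson r of 0.46 and a Spearman rho of 0.63, against 0.49 and 0.45 over 14730 genes tested in both, given as a description since the genes share libraries and are not independent.

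The size of the change differed between lines for most members. A direct test of the H9 change minus the H1 change over the 12 libraries called 35 of 54 members, 32 of them with a smaller value in H9 and 3 with a larger one, at a median of −0.61. Of all genes tested 49.9% were called, 23.6% lower and 26.2% higher, with a median of 0.04. Markers of state also differed between the naive groups, not all in one direction. The 6 primed markers summed to 1297 to 1391 CPM in naive H9 against 687.5 to 695.9 CPM in naive H1 controls. Of these, SFRP2 was at 68.7 against 0.382 and THY1 at 27.4 against 0.506 CPM, but ZIC2 was lower, at 5.36 against 13.2 CPM. The 6 neural ectoderm markers summed to 10.2 to 11.9 against 6.06 to 8.85 CPM. Among them PAX6 was at 8.9 against 0.489 CPM, while SOX1, LHX5 and OTX1 had lower means in naive H9 (OTX1 0.809 against 4.03 CPM). Their part in the differences was not tested. The 3 with the larger change in H9 were again the neighbours ZNF534 (5.89 ± 1.32, a fitted value that depends on the 0 counts in primed H9), ZNF880 (3.31 ± 0.22) and ZNF578 (0.86 ± 0.21). For ZNF880 the primed groups differed most: primed H1 controls had 19.9, 19.2 and 17.9 CPM and the lowest H1 group mean was 18.97 CPM, while the naive means were 25.3 CPM in H9 and 35.7 CPM in H1 controls. ZNF534 had 0.223, 0.532 and 0.27 CPM in primed H1 controls and 3.01, 3.08 and 1.5 CPM in naive ones (log2 change 2.95 ± 0.54, adjusted p = 2.02e-06).

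The largest differences in the other direction were those of ZNF552 (−2.70 ± 0.18), ZNF583 (−2.61 ± 0.38), ZNF432 (−2.23 ± 0.19), ZNF600 (−2.06 ± 0.17) and ZNF468 (−1.98 ± 0.17), all with adjusted p at or below 1.05e-06. Here the naive groups differed: ZNF552 had 13.3, 11.3 and 11.96 CPM in naive H9 against 89.1 to 93.7 CPM in naive H1 controls, while primed H9, at 7.23, 6.26 and 8.09 CPM, overlapped primed H1 controls. ZNF583 rose in naive H1 but stood at 2.04, 2.09 and 1.88 CPM in naive and 1.5, 1.82 and 1.28 CPM in primed H9 (log2 change 0.39, adjusted p = 0.31). ZNF468 was at 84.2 CPM in naive H1 controls and 21.9 CPM in naive H9, but 99.2% of the 50-base runs of its longest transcript recur in other genes, most often in ZNF320 and AC010487.3, so its reads cannot be assigned to it with certainty.

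**Figure D3:**
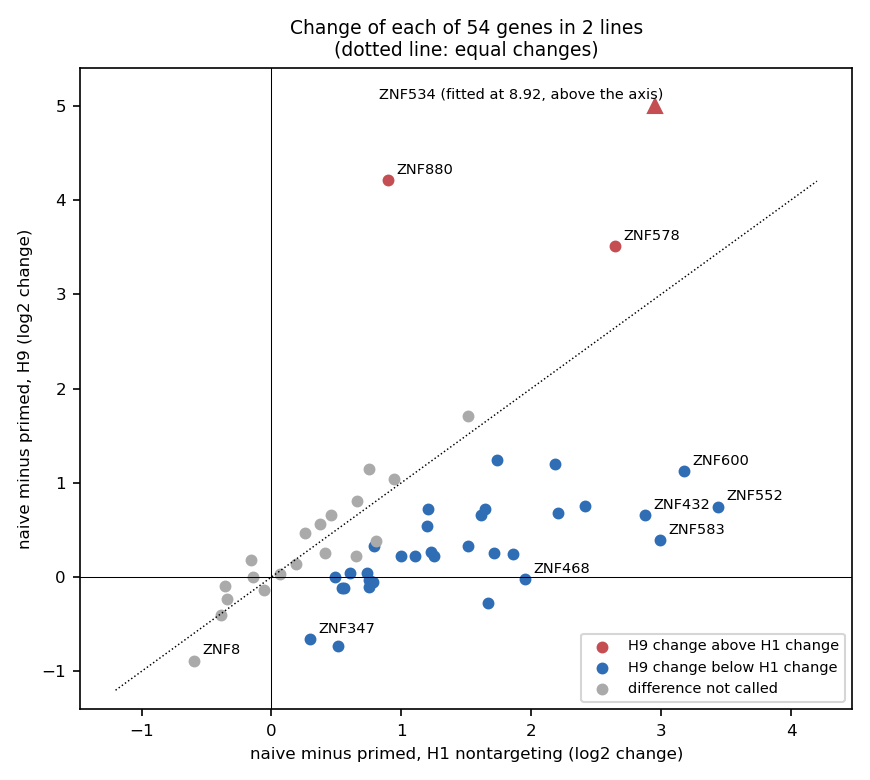
Log2 change between naive and primed cells in H9 (y axis) against that in H1 nontargeting controls (x axis) for each of the 54 genes (points), coloured by the test of the difference, with a dotted line of equal changes. ZNF534, ZNF880 and ZNF578 lie above the line and the 32 genes called smaller in H9 lie below it. The triangle stands for ZNF534, fitted at 8.92 in H9, above the axis.

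The changes were also counted in each cluster. In naive against primed H1, 30 of 36 proximal members rose and 2 fell (median 1.2), and 14 of 18 distal members rose and 2 fell (median 0.70). Of all genes tested there 35% were higher and 36.1% lower. In H9, 20 proximal members rose (55.6%) and 3 fell (median 0.33), against 5 distal members that rose (27.8%) and 2 that fell (median 0.09). The distal share of higher calls was near that of all genes tested in H9, 25.4%, with 26.1% lower. The difference between the clusters was not tested. Within the proximal cluster, a stretch of 6 members from ZNF160 to ZNF845, picked out after their values were seen, had H1 changes of −0.16 to 0.46 (median 0.18), while 25 of the 26 members before it rose (median 1.56). That stretch holds ZNF160, ZNF415, ZNF347, ZNF665, ZNF677 and ZNF845.

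**Figure D4:**
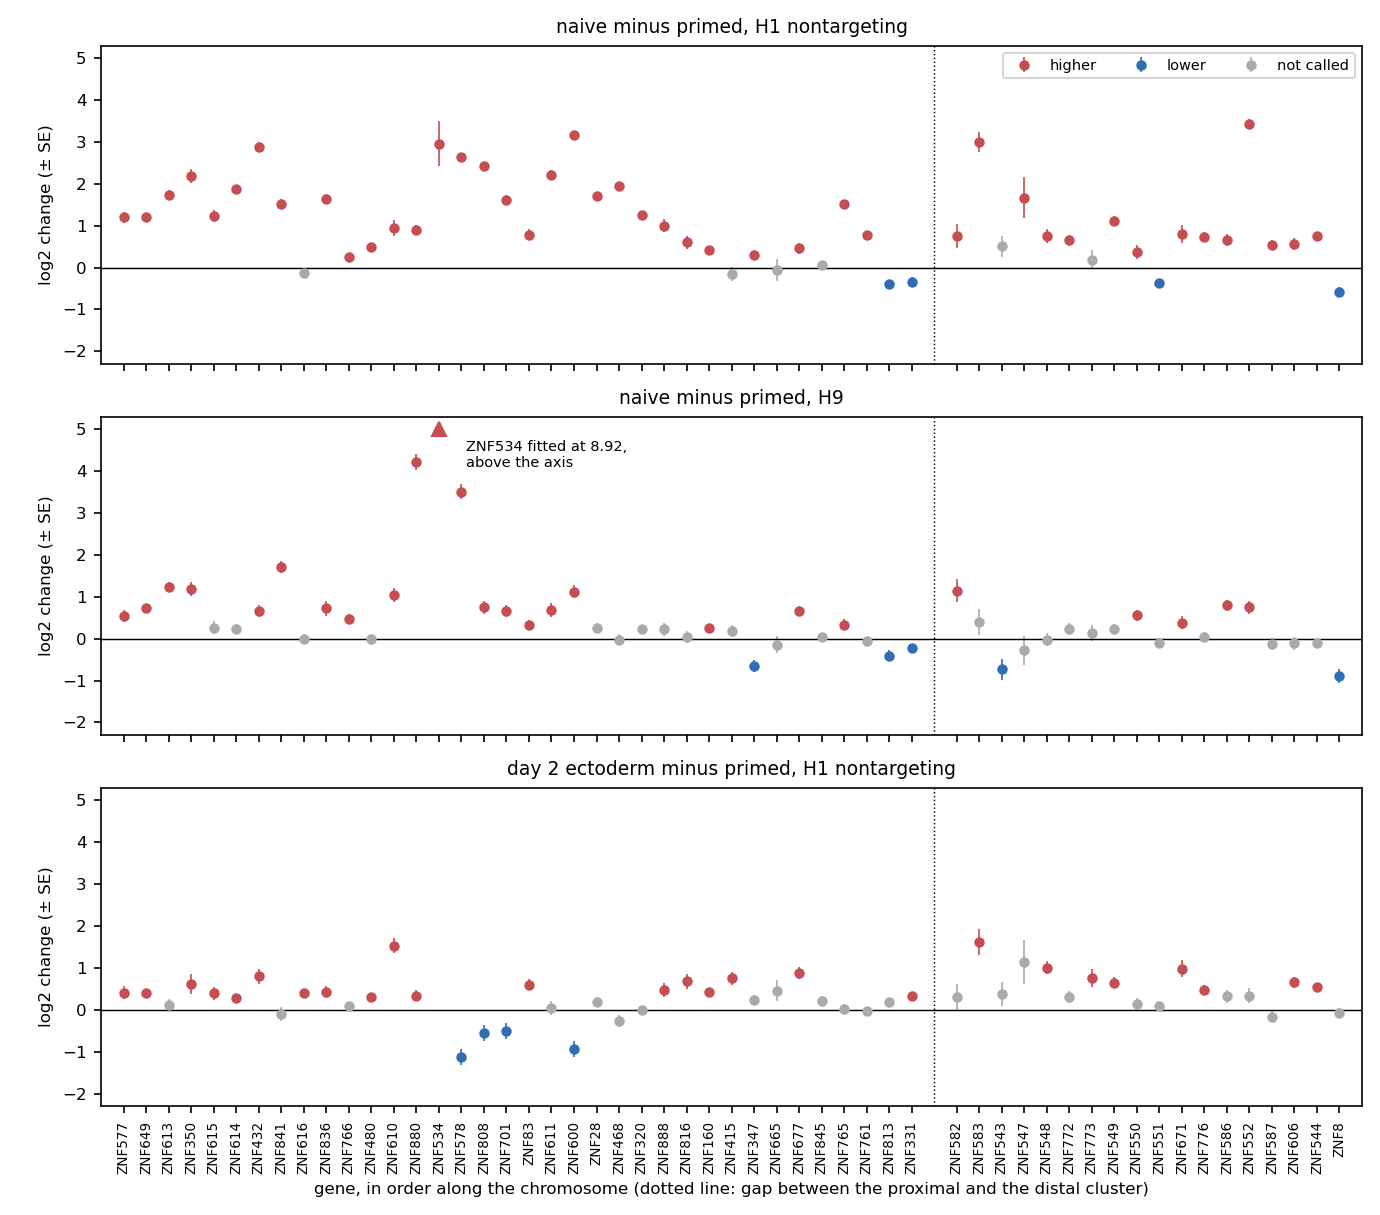
Log2 change (y axis, points with SE bars) of each of the 54 genes in order along chromosome 19 (x axis) for naive minus primed H1 controls, naive minus primed H9, and day 2 ectoderm minus primed H1 controls; red marks genes called higher, blue lower and grey not called. Of the 54 genes 44 are red in H1 and 25 in H9, and ZNF8 at the far right is blue in both. The triangle stands for ZNF534, fitted at 8.92, above the axis.

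Other ZNF genes give the setting for these counts. Of 348 ZNF genes outside the span that were tested in H1, 170 rose and 63 fell in naive cells (median 0.30), and of the 34 tested within the span that are not members 17 rose and 4 fell (median 0.44). In H9, 91 of 352 outside the span rose and 76 fell (median −0.02), and 8 of 34 within it rose and 1 fell (median 0.07). The protein coding neighbours without a ZNF symbol had a median of 0.18 in H1, with 24 of 55 higher and 15 lower, and of 0.16 in H9, with 20 of 62 higher and 11 lower. The members' share of higher calls was above each of these shares in both lines, a difference that was not tested. As the members were chosen with earlier results of these data known, this ordering is a description only and not independent of the data.

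Day 2 ectoderm controls were compared with primed H1 controls to follow the genes into differentiation. Of the 53 members tested, 26 rose and 4 fell, with a median log2 change of 0.34. Fibroblast markers summed to 137.5 to 159.8 CPM in ectoderm against 306 to 322 CPM in primed controls, and amnion markers to 0.145 to 1.42 against 11.8 to 13 CPM, and their part was not tested. The libraries of 31 members did not overlap. Of all genes tested 62.8% were called, 30.7% higher and 32.1% lower, and 65.8% had libraries that did not overlap. In the same comparison 175 of 341 ZNF genes outside the span rose and 37 fell (median 0.41). Log2 change fell with GC content over all genes tested (Spearman rho −0.348), and members had a median GC content of 41.9% against 49.1% of protein coding genes. With GC and length trends removed, 15 members rose and 7 fell, and the median was 0.17.

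ZNF583 had the largest rise, from 1.56, 1.73 and 2.25 to 4.78, 7.46 and 4.91 CPM (log2 change 1.62 ± 0.32). ZNF610 rose from 5.35, 6.39 and 6.56 to 14.2, 19.7 and 18.7 CPM (log2 change 1.53 ± 0.18). ZNF548 rose by 1.00 ± 0.16, ZNF671 and ZNF677, both known as genes silenced by promoter methylation in tumours, by 0.98 ± 0.21 and 0.88 ± 0.14, ZNF432 by 0.80 ± 0.19, ZNF415 by 0.75 ± 0.16 and ZNF773 by 0.75 ± 0.22 on the log2 scale. Those that fell were ZNF578, ZNF600, ZNF808 and ZNF701. ZNF578 went from 14.1, 11.98 and 12.3 to 6.37, 6.28 and 5.33 CPM (log2 change −1.12 ± 0.19) and ZNF600 from 13.3, 13.7 and 12.9 to 6.66, 5.69 and 8.41 CPM (log2 change −0.94 ± 0.18), neither with overlap. All 4 were among the genes higher in naive than primed H1 controls, a comparison that shares the primed controls with this one.

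ZNF8 knockdown in naive H1 cells was compared with its control, which asks whether the relatives of ZNF8 change when it is targeted. Of the 54 members 13 fell and 1 rose, with a median log2 change of −0.13. The libraries of 21 members did not overlap. In all genes tested 24.2% were called, 12.3% lower and 11.9% higher, and 37.4% had libraries that did not overlap. Of 349 ZNF genes outside the span 59 fell and 10 rose (median −0.13). The calls lay mainly in the proximal cluster, where 12 of 36 fell, against 1 of 18 in the distal cluster, the difference being untested.

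ZNF534 had the largest fall, from 3.01, 3.08 and 1.5 to 0.566, 0.627 and 1.13 CPM (log2 change −1.77 ± 0.43, adjusted p = 0.0019), on 8 to 35 counts per library. ZNF600 fell from 120, 113 and 130 to 77.1, 77.5 and 85.3 CPM (log2 change −0.62 ± 0.07, adjusted p = 3.53e-09). ZNF845 fell from 44.1, 43.9 and 46.6 to 30.9, 29.6 and 31.8 CPM (log2 change −0.56 ± 0.09, adjusted p = 8.27e-06). None of the 3 had overlapping libraries. ZNF347 fell by 0.56 ± 0.12, ZNF586 by 0.51 ± 0.12, ZNF160 by 0.49 ± 0.08, ZNF816 by 0.39 ± 0.13, ZNF813 by 0.32 ± 0.10 and ZNF611 by 0.26 ± 0.08 on the log2 scale. ZNF577 alone rose, from 30.6, 36.2 and 33.2 to 43.9, 41.0 and 39.5 CPM (log2 change 0.30 ± 0.09, adjusted p = 0.0136). ZNF552, the gene with the largest naive rise in H1, stood at 90.8, 89.3 and 97.7 CPM against 89.1, 93.7 and 92.0 CPM (log2 change 0.00 ± 0.07, adjusted p = 0.998).

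Of the 14 calls, those of ZNF160, ZNF347, ZNF534, ZNF586, ZNF600 and ZNF845 held under all 13 alternatives. The count was 6 with all 8 groups in one fit, 8 without knockdown replicate 1 and 9 without control replicate 1. The stretch from ZNF160 to ZNF845, picked out after its values were seen, had a median of −0.52 here. Of its 6 genes 4 were lower, against 12.3% of all genes tested. Among the other proximal members, 7 of the 26 before it and 1 of the 4 after it were lower. These counts are a description, as the stretch was chosen by its values. The naive H1 controls used here also served in the naive against primed comparison in which the stretch was described. Naive markers moved with the knockdown: their sum was 245 to 255 CPM against 344 to 361 CPM, with KLF17 at 1.51 against 10.8 CPM, the trophoblast markers summed to 11.5 to 16 against 41.6 to 48.6 CPM, and the fibroblast markers to 398 to 432 against 309 to 319 CPM. Their part in the members' changes was not tested.

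CARHSP1 encodes a cold shock domain protein that binds RNA. With its knockdown in primed H1 cells, 7 of 53 members tested fell and 1 rose, with a median log2 change of 0.01, while 20.2% of all genes tested were called, 9.87% lower and 10.3% higher. Libraries did not overlap in 12 members, against 34.1% of all genes. Over all genes tested the change fell with GC content (Spearman rho −0.328). Naive markers summed to 25.7 to 29.3 CPM with the knockdown against 34.9 to 40 CPM. Fibroblast markers summed to 271 to 301 against 306 to 322 CPM. Among the latter, COL1A1 and COL1A2 had lower means with the knockdown, and THBS1 and POSTN higher ones. The part of these markers was not tested. ZNF836 fell from 14.1, 16.2 and 13.9 to 8.28, 10.2 and 10.6 CPM (log2 change −0.59 ± 0.15, adjusted p = 0.00411) and ZNF160 from 51.9, 54.3 and 55.02 to 41.4, 48.7 and 40.5 CPM (log2 change −0.31 ± 0.08, adjusted p = 0.00607). Both had libraries that did not overlap and were the only 2 of the 8 calls to hold under all 13 alternatives. ZNF578, ZNF600, ZNF776, ZNF8 and ZNF551 fell by 0.48, 0.43, 0.37, 0.29 and 0.23 on the log2 scale. ZNF610 rose from 5.35, 6.39 and 6.56 to 10.3, 9.04 and 8.85 CPM (log2 change 0.63 ± 0.19, adjusted p = 0.0132, lost without control replicate 1 at 0.0871). DESeq2 called 5 members. Omitting control replicate 1 left 4 calls, and 5 were left on omitting knockdown replicate 2, control replicate 2 or control replicate 3.

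ZIC2 encodes a zinc finger transcription factor of the neural ectoderm that belongs to another family. With its knockdown in day 2 ectoderm, 10 of 54 members fell and 1 rose, with a median log2 change of −0.19, while 28.1% of all genes tested were called, 12.8% lower and 15.3% higher. Libraries did not overlap in 21 members, against 41.4% of all genes. Fibroblast markers, of which 3 of 4 had a count, summed to 258.5 to 289 CPM with the knockdown against 137.5 to 159.8 CPM, and amnion markers to 4.56 to 5.43 against 0.145 to 1.42 CPM. The 5 trophoblast markers summed to 9.72 to 15.7 CPM with the knockdown against 8.83 to 12 CPM, with overlap. Of these, GATA3 was at 2.17 CPM with the knockdown and at 0 in all 3 controls. GATA2 was at 1.5 against 0.111 CPM, while KRT7 was at 8.52 against 10.5 CPM. The part of these markers in the members' changes was not tested. ZNF432 fell from 14.8, 11.4 and 16.1 to 9.45, 8.7 and 8.0 CPM (log2 change −0.69 ± 0.19, adjusted p = 0.00775, lost without control replicate 3 at 0.0567) and ZNF813 from 49.2, 44.3 and 46.8 to 32.2, 34.5 and 37.3 CPM (log2 change −0.43 ± 0.10, adjusted p = 0.00294). ZNF841 rose from 10.1, 13.6 and 12.8 to 16.8, 20.9 and 18.5 CPM (log2 change 0.60 ± 0.16, adjusted p = 0.0076). In none of these did the libraries overlap. ZNF765 fell by 0.51, ZNF586 by 0.50, ZNF550 and ZNF836 by 0.47, ZNF776 by 0.46 and ZNF549 by 0.38 on the log2 scale. Over all genes tested the change rose with GC content (Spearman rho 0.329), and with GC and length trends removed 7 members were called, 6 lower and 1 higher. The count was 6 without control replicate 3 and 7 without knockdown replicate 1.

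The 3 knockdown comparisons share no libraries. Of 53 members tested in all 3, ZNF160 and ZNF836 fell in each (3.77%), against 0.613% of 13698 genes tested in all 3. For ZNF160 the log2 changes were −0.49 with ZNF8, −0.31 with CARHSP1 and −0.36 with ZIC2 knockdown. A further 5 members, ZNF578, ZNF586, ZNF600, ZNF776 and ZNF813, fell in 2 of the 3, so that 13.2% of members and 5.85% of all genes fell in at least 2. No member rose in more than 1, while 6.56% of all genes rose in at least 2. ZNF160 kept its call under all 13 alternatives of each comparison. ZNF836 did so only with CARHSP1 knockdown, and its call with ZNF8 knockdown (adjusted p = 0.0474) was lost in 8 of 13.

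**Figure D5:**
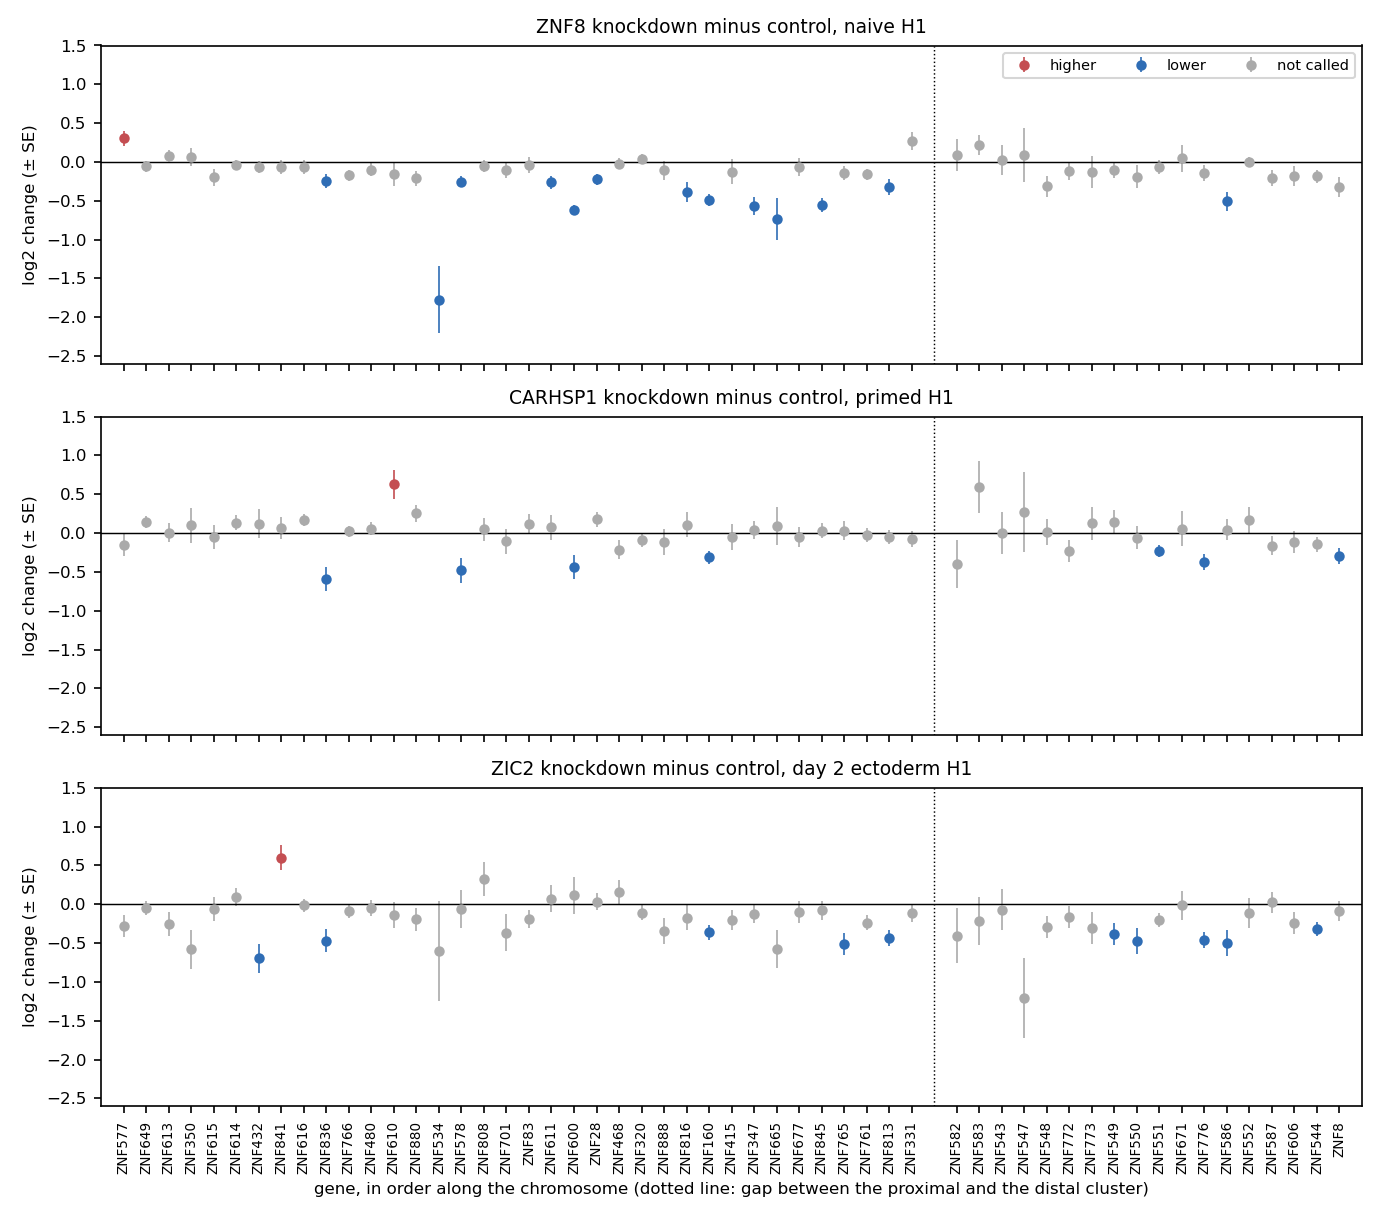
Log2 change (y axis, points with SE bars) of each gene tested, in order along chromosome 19 (x axis), for ZNF8 knockdown in naive H1, CARHSP1 knockdown in primed H1 and ZIC2 knockdown in day 2 ectoderm, each minus its control; red marks genes called higher, blue lower and grey not called. Blue points number 13, 7 and 10, and 1 gene is red in each panel (ZNF577, ZNF610 and ZNF841).

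The partners through which KRAB zinc finger proteins act were followed as a list of 21 cofactor genes. In naive against primed H1 controls 10 rose (47.6%) and 9 fell (42.9%), against 35% higher and 36.1% lower of all genes tested. In H9 3 rose (14.3%) and 10 fell (47.6%), against 25.4% and 26.1%. The cofactors thus did not share the members' upward direction. SETDB1 rose by 0.39 ± 0.07 on the log2 scale in naive H1 and was not called in H9 (log2 change −0.16 ± 0.10, adjusted p = 0.193, edgeR), and the difference between the lines passed (−0.55 ± 0.12, adjusted p = 0.000265). DNMT1 and UHRF1, which maintain DNA methylation, fell by 0.92 ± 0.05 and 0.77 ± 0.09 in H1 and by 0.49 ± 0.08 and 0.81 ± 0.16 in H9. In ectoderm against primed cells 16 rose (76.2%) and 3 fell (14.3%), against 30.7% and 32.1% of all genes tested. TRIM28 was among those that fell (log2 change −0.83 ± 0.05), while SETDB1 and ATF7IP, a SETDB1 partner, rose by 0.62 ± 0.08 and 0.65 ± 0.06. With ZNF8 knockdown 7 fell (33.3%) and 1 rose (4.76%), against 12.3% and 11.9% of all genes tested. HDAC1, ATF7IP, UHRF1, HDAC2, SUMO2, CBX1 and CBX5 fell by 0.22 to 0.61 and MORC2 rose by 0.25 on the log2 scale. With ZIC2 knockdown 12 fell (57.1%) and 2 rose (9.52%), against 12.8% and 15.3% of all genes tested. The 2 that rose were TRIM28 (log2 change 0.56 ± 0.07) and DNMT1 (0.26 ± 0.06). With CARHSP1 knockdown 4 rose (19%) and 2 fell (9.52%), against 10.3% and 9.87%.

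Near-identical copies and overlapping genes limit how surely counts belong to one member. Of the 54 genes, 32 overlap another gene on the same strand and 26 one on the other strand. For 15 members more than 10% of the 50-base runs of their longest transcript recur in another gene, with a median over all members of 3%. The highest shares were those of ZNF320 (99.5%) and ZNF468, then ZNF8, ZNF587 (20.2%), ZNF808 (18.5%) and ZNF552 (18.4%), while ZNF534 shared none. Whether reads were counted by strand is not stated in the sources.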

How the data were processed

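Polyadenylated RNA of 24 libraries was sequenced. RNA was extracted with the RNeasy kit and libraries made with the TruSeq stranded mRNA kit, per the labels' protocols. The authors deposited whole-number read counts per gene, with gene length, made with HISAT2 on GRCh38 per the submitters' processing notes. The sources used here do not name the counting tool, annotation, strand setting or versions. Counts were used as deposited and 27 count columns that match no sample were not used.

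Each comparison was fitted on its own groups with edgeR 4.0.16 in R 4.3.3 (filterByExpr, TMM scaling, quasi-likelihood F test, Benjamini-Hochberg adjustment over all 15013 to 17140 genes tested, threshold 0.05). The line difference was an interaction contrast over 12 libraries. Printed CPM were scaled by TMM over all 24 libraries, and RPKM used the deposited gene length. The biological coefficient of variation was 6.13% to 9.67%. Replicates of a group differed by more than sampling noise (chi-square per degree of freedom 2.44 to 9.16).

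Gene positions came from GENCODE 29 and promoters from RefSeq on GRCh38.p14, where 46 of 54 members matched. Read sharing was the share of the 50-base runs of a member's longest transcript found in another gene. Alternatives were DESeq2 1.42.0, no filter, all 8 groups in one fit, upper-quartile scaling, GC and length trends removed, the replicate block with and without that correction, and leaving out each library. The procedure was tested on simulated data. Genes were named by rule: ZNF8; up to 8 called members in each direction with the largest change among those with non-overlapping libraries and a mean of at least 2 CPM; up to 5 in each direction for the line difference; and the 5 highest and 5 lowest levels per length. Other members named were chosen after their values were seen. The members and lists were chosen with earlier results of these data known. Sharing of replicate numbers was checked, and in no comparison did all 3 same-numbered pairs correlate above 0.1. With CARHSP1 knockdown each of the 3 libraries still correlated best with its same-numbered control, at r of 0.0609 to 0.0953. In H9 the 3 pairs had r of 0.46, −0.383 and −0.27. The numbers were not taken to pair libraries, and the replicate block among the alternatives allows for pairing.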

Additional observations from a re-analysis of the deposited data

Results flagged for a closer look

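The naive-minus-primed change differed between H9 and H1 for the 8 members named for the size of that difference, by the direct test of the difference over 12 libraries (edgeR). Larger in H9 were ZNF534 (5.89 on the log2 scale), ZNF880 (3.31) and ZNF578 (0.86). Smaller in H9 were ZNF552 (−2.70), ZNF583 (−2.61), ZNF432 (−2.23), ZNF600 (−2.06) and ZNF468 (−1.98). The value of ZNF534 is fitted on 0 counts in primed H9.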

How the results depend on the processing

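The count of members called was 8 with CARHSP1 knockdown, and 5 with DESeq2 and 4 to 6 when a library was left out. It was 14 with ZNF8 knockdown, 6 with all 8 groups in one fit and 8 to 15 when a library was left out. It was 11 with ZIC2 knockdown, 7 with GC and length trends removed, 7 with that correction and the replicate block, and 6 to 9 when a library was left out. Leaving out a library gave 25 to 30 members in naive against primed H9, 45 to 49 in H1, 24 to 31 in ectoderm and 33 to 36 for the line difference. With the replicate block the counts were 8, 14, 11, 27, 48, 30 and 35, in the order CARHSP1, ZNF8, ZIC2, H9, H1, ectoderm and line difference. The ZNF8 change in ectoderm, not called, was −0.08 and ran from −0.14 to 0.015 when a library was left out, at 0.0012 without primed control replicate 3 and 0.015 without ectoderm control replicate 3. The cause was not tested. Over the named members, 910 values kept direction and side of the threshold, 86 lost the call, 5 gained it and 2 turned. The median log2 change of all genes in ectoderm was −0.105 without the filter and −0.0015 with it. Low counts limit ZNF534, and shared sequence limits ZNF320 and ZNF468.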
